A study of Homo sapiens with 2 samples.

Results

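Clusters of neighbouring MLL3 regions were examined in KYSE510, an established cell line from a human squamous cell carcinoma of the esophagus. Summits of MLL3 regions on chromosomes 1 to 22 were joined into a chain wherever neighbours lay within the distance customary for stitching super-enhancers (the widest link that it allowed was 12499 bp), and chains of 3 or more regions were kept. This gave 318 chains with 1059 MLL3 regions, 10.3% of the 10269 regions that could enter a chain. The remainder fell into 1045 pairs (2090 regions) and 7120 isolated regions. Summits in the dense tracts on chromosome 1 (212.1 to 216.7 Mb, hg19) and chromosome 9 (5.2 to 9.6 Mb), 1627 regions in all, had been left out by the rule. The whole MLL3 list held 12196 regions.

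Fixed and sheared chromatin of these cells had been precipitated with an MLL3 antibody for 1 library and a GRHL2 antibody for the other. Both lists were called against input, and neither factor had a replicate, so no difference can be set against a spread between cultures. The cells with MLL3 or GRHL2 silenced by siRNA that the study design mentions were not analysed here. The MLL3 positions chose the members, and all MLL3 values are therefore description. The GRHL2 list played no part in the choice.

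MLL3, encoded by KMT2C, is a large histone methyltransferase that places monomethyl marks on histone H3 at enhancers, as part of a multi-subunit complex. GRHL2 is a Grainyhead-like transcription factor that opens chromatin at epithelial enhancers and keeps up genes of cell junctions. Super-enhancers are groups of enhancers close together on the chromosome, usually defined by stitching nearby sites and ranking the stitched units by the signal of Mediator or of acetylated histones. They often lie at genes that define a cell type. The chaining used here is the stitching step alone, since neither of those signals was measured in these lists. No hg19 annotation or sequence was used here, so chains are named by their hg19 coordinates (1-based) and not by genes.

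Most chains were short and held the smallest number of regions the rule allows. There were 239 chains of 3, 60 of 4, 14 of 5, 3 of 6 and 2 of 7 MLL3 regions. From the first start to the last end, a chain had a median span of 12014 bp (quartiles 7096 and 16560 bp, range 1242 to 35415 bp). All chains together spanned 3943 kb, of which MLL3 regions covered 488 kb. Chains were thus mostly gaps: the median chain had 12.8% of its length under MLL3 regions, with a range of 4.23% to 76.3%.

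Spacing inside the chains was uneven. The 741 links between neighbouring summits had a median of 4445 bp (quartiles 1767 and 8129 bp), close to the 4422 bp of the 1045 links of pairs. In 97 links (13.1%) the summits were under 1 kb apart, and 83 chains had at least 1 such link. When summits under 1 kb apart were counted as 1 region, there were 255 chains of 3 or more. The link limit decided some chains: 25 chains of 3 were held together by a link in the last 1 kb under it, and a limit 1 kb longer would have made chains of 24 further groups. The 75 regions of those 25 chains had a median MLL3 fold of 7.21 and overlapped GRHL2 in 89.3% of cases, and the 74 regions just outside the limit had a median MLL3 fold of 6.37 and overlapped it in 94.6%.

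**Figure D1:**
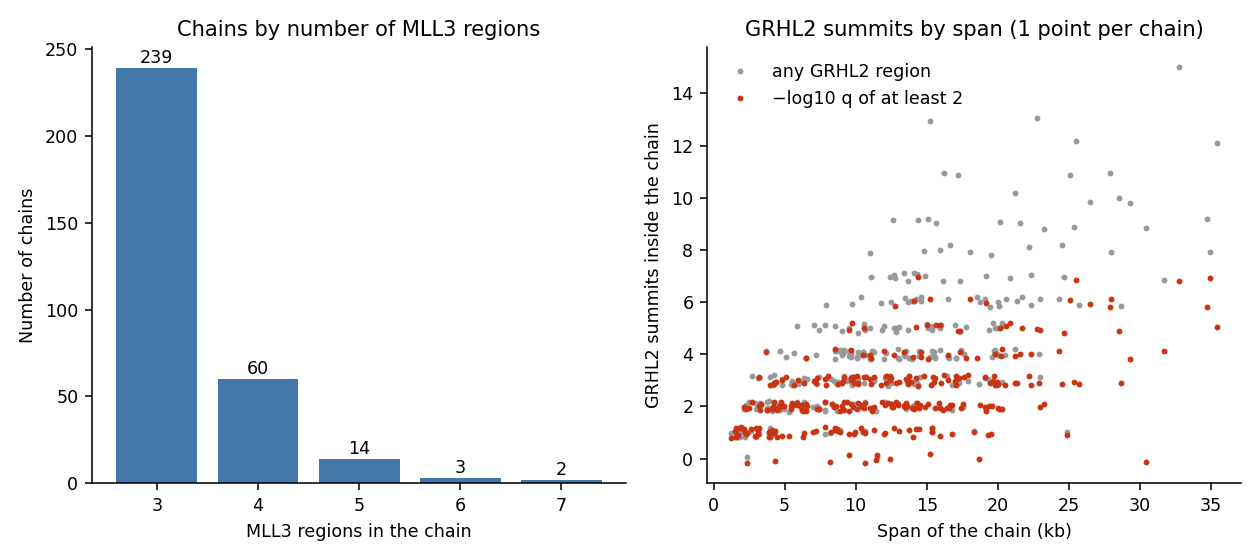
Left, number of chains (y) by number of MLL3 regions in the chain (x). Right, number of GRHL2 summits inside a chain (y, with a small vertical jitter) against its span in kb (x), 1 point per chain, for any GRHL2 region (grey) and for those reaching a −log10 q of 2 (red). Chains of 3 make up 239 of the 318, and long chains hold more GRHL2 summits, up to 15.

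Single MLL3 regions in chains were no stronger than regions elsewhere. Fold enrichment, the authors' ratio of ChIP signal to local background at the summit, had a median of 6.65 in chain members (quartiles 5.32 and 9.46, range 2.91 to 45.1). It was 6.83 in pairs and 6.83 in isolated regions, whose maximum of 70.5 was higher. Widths were also alike, with medians of 390 bp in chains, 410 bp in pairs and 375 bp in isolated regions. Within a chain the regions were unequal: the strongest had a median of 2.07 times the fold of the weakest, and at most 10.5 times. The strongest region carried a median of 43.2% of the chain's summed fold (range 22.9% to 80.6%). In the 239 chains of 3 it was the middle region in 77 and an end region in 162.

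The comparison with super-enhancers was made by ranking all 8483 stitched units, singles and pairs included, by their summed MLL3 fold. This sum stands in for the read signal that such rankings use, which the lists do not hold. Chains had a median sum of 25.2 (range 9.92 to 64.6), pairs 14.8 and isolated regions 6.83, where the sum runs over more regions in a chain by construction. No chain stood apart at the top. The highest sum of any unit, 70.5, belonged to an isolated region, the highest pair reached 63.7, and 132 isolated regions exceeded the median chain. At the point where the ranked curve has the slope of the diagonal, a sum of 18.2, 907 units lay above: 264 chains (83.0% of chains), 297 pairs and 346 isolated regions. With fold times width in place of fold, 712 units lay above, of which 139 were chains and 370 were isolated. Chains held 10.2% of the summed fold of all units, against 10.3% of the regions. Chains thus had higher sums than most other units but did not form a class of their own, and they are called chains of clustered MLL3 regions here.

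**Figure D2:**
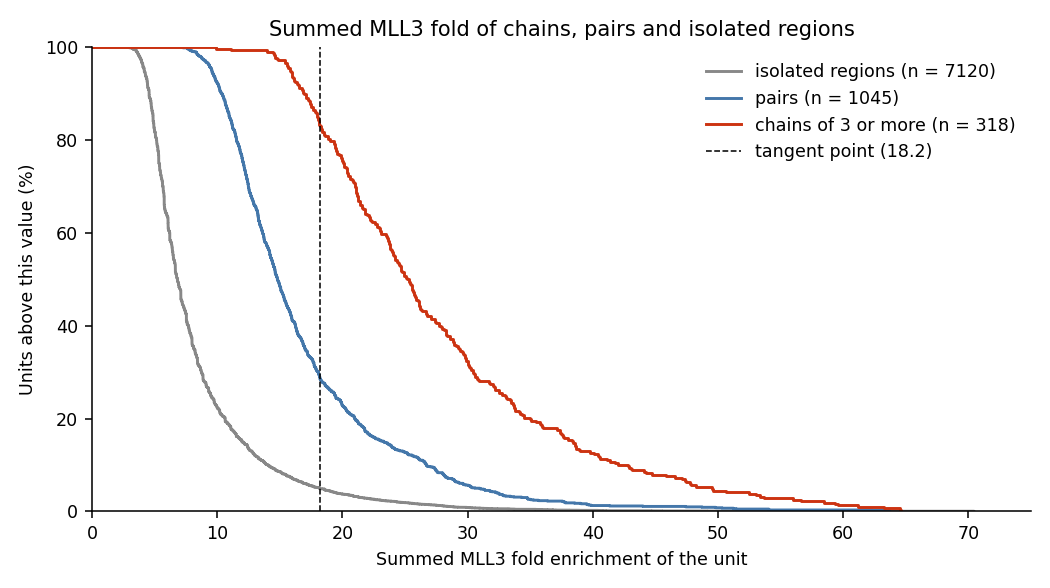
Percentage of stitched units (y) whose summed MLL3 fold enrichment lies above the value on the x axis, for 318 chains of 3 or more (red), 1045 pairs (blue) and 7120 isolated regions (grey), with the tangent point of the ranked curve at 18.2 (dashed). The curve of chains lies to the right of the others, but it ends at 64.6, below the highest isolated region at 70.5.

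Clustered MLL3 regions overlapped GRHL2 regions more often than isolated ones did. Of the 1059 members, 955 (90.2%, 95% interval 88.2 to 91.9%) overlapped a GRHL2 region by at least 1 bp, against 83.7% of all 10269 MLL3 regions. The share was 88.1% in pairs (86.6 to 89.4%) and 81.4% in isolated regions (80.5 to 82.3%). The GRHL2 list is permissive, with 69.0% of its regions on chromosomes 1 to 22 at a q above 0.05, whereas the lowest −log10 q of the MLL3 list was 2.07. For GRHL2 regions reaching a −log10 q of 2 the shares were 76.6% of chain members (73.9 to 79.1%), 66.5% of all MLL3 regions and 63.2% of isolated regions (62.1 to 64.3%). For those reaching 5 they were 60.4% of members, 50.4% of all and 47.6% of isolated regions, and for those reaching 20 they were 39.4%, 31.2% and 29.4%. Pairs lay between chains and isolated regions, with 72.7%, 55.02% and 33.1% at these 3 thresholds. The order was thus the same at each GRHL2 threshold. These intervals cover counting only, and members of 1 chain are not independent of each other.

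Strong GRHL2 partners were more frequent in chains. GRHL2 regions reaching a −log10 q of 100 lay on 221 members (20.9%), against 16.5% of all MLL3 regions, 17.9% of paired and 15.5% of isolated ones. No GRHL2 region lay on 104 members (9.82%), against 16.3% of all MLL3 regions, 11.9% of paired and 18.6% of isolated ones. Pairs were thus nearer to chains than to isolated regions in this share. Over the 955 members on GRHL2, the median GRHL2 fold was 7.08 (95% interval 6.42 to 7.99), against 6.05 in pairs and 5.60 in isolated regions (5.45 to 5.92). The GRHL2 regions were also wider, with a median of 1103 bp (1049 to 1175 bp) against 855 bp (834 to 871 bp) under isolated regions. A GRHL2 region under several members was counted once for each of them. The part of the GRHL2 width in the shares was not tested. More than 1 GRHL2 region lay on 12 members (1.13%), against 0.721% of all MLL3 regions and 0.548% of isolated ones, and pairs with 1.10% were like chains. Median GRHL2 strength was not higher in longer chains: the median GRHL2 fold was 7.70 in chains of 3, 6.61 in chains of 4 and 5.90 (4.80 to 10.3) in chains of 5 to 7. The share on any GRHL2 region was 89.3%, 90.8% and 95.1% in the same order, with overlapping intervals.

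**Figure D3:**
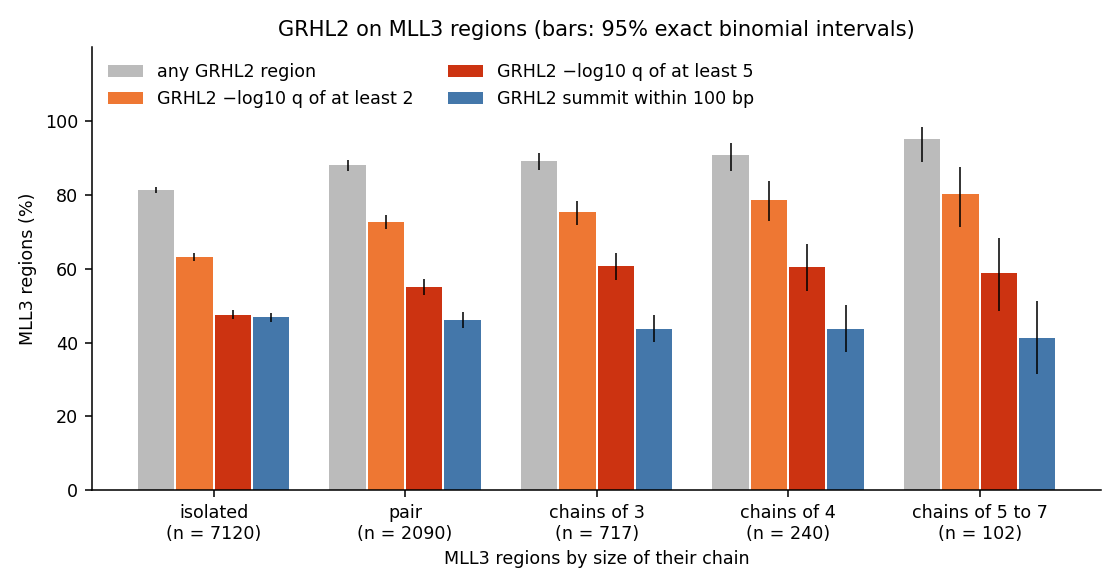
Percentage of MLL3 regions (y) that overlap any GRHL2 region (grey), one reaching a −log10 q of 2 (orange) or 5 (red), or that have a GRHL2 summit within 100 bp (blue), by the size of the chain they belong to (x). Error bars are exact 95% binomial intervals over regions. Overlap is lowest in isolated regions at all 3 thresholds, while the share with summits within 100 bp is 46.9% there and 41.2% to 43.8% in chains.

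The difference from isolated regions was present at each level of MLL3 enrichment. In the lowest quartile of MLL3 fold (up to 5.33), 85.0% of 273 chain members (80.2 to 89.0%) and 71.0% of 1773 isolated regions (68.8 to 73.1%) lay on a GRHL2 region. The next quartiles had 88.7% against 77.4%, and 89.2% against 82.8%. In the highest quartile (9.48 and above) the shares were 98.1% of 263 members (95.6 to 99.4%) and 94.3% of 1790 isolated regions (93.1 to 95.3%). The gap was thus narrowest among strong MLL3 regions when any GRHL2 region was counted. For GRHL2 regions reaching a −log10 q of 5 it did not narrow, with 49.5% of members against 35.0% of isolated regions in the lowest quartile and 81.4% against 66.9% in the highest. Pairs had 81.8%, 84.3%, 89.4% and 96.8% on any GRHL2 region from the lowest quartile to the highest, and were like chains in the upper quartiles. At a −log10 q of 5 they had 41.3%, 42.6%, 58.6% and 77.2%, against 49.5%, 53.0%, 58.75% and 81.4% of chain members.

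Summits, in contrast, were not closer together in chains. Over members on GRHL2 GRHL2 summits lay a median of 106 bp from the MLL3 summit (96 to 118 bp), against 92 bp in pairs and 81 bp (77 to 84 bp) in isolated regions. A GRHL2 summit lay within 100 bp of 43.5% of members (40.5 to 46.6%), 46.4% of all MLL3 regions and 46.9% of isolated regions (45.7 to 48.04%). Neighbouring MLL3 regions lay on the same GRHL2 region in 125 of the 741 links, always with summits at most 3025 bp apart. The part of such links in the distance was not tested. Without the 83 chains that had a link under 1 kb the median distance was 96 bp, the share on GRHL2 90.2% and the median GRHL2 fold 6.71.

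Compact chains differed from extended ones in the kind of GRHL2 region beneath them. The 56 chains with a span under 5 kb (170 regions) had a median GRHL2 fold of 10.7, a median GRHL2 width of 1696 bp and a median summit distance of 179 bp. In them 52 of 114 links (45.6%) joined MLL3 regions on the same GRHL2 region. The 41 chains of 20 kb or more (175 regions) had a median GRHL2 fold of 5.90 and a width of 972 bp, and 8 of 134 links (5.97%) were on a shared GRHL2 region. The share of regions on GRHL2 was 90.0% (84.5 to 94.1%) in the compact chains and 93.1% (88.3 to 96.4%) in the extended ones. For GRHL2 regions reaching a −log10 q of 5 the counts were 119 of 170 (95% interval 62.5 to 76.8%) and 98 of 175 (48.3 to 63.5%). These were 70% and 56%, with overlapping intervals, against 50.4% of all MLL3 regions. Chains of intermediate span had 59.7% (54.5 to 64.8%) in the shorter group and 58.8% (53.4 to 63.9%) in the longer one. The share on strong GRHL2 was thus highest in the compact chains and differed little among the others. The share on any GRHL2 region was similar in compact and extended chains. A shared GRHL2 region enters these counts, medians and intervals once for each MLL3 region on it, which happened more in compact chains. The part of this sharing in the differences was not tested. MLL3 fold was nearly equal, with medians of 6.42 and 6.43.

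There were 12 chains whose MLL3 regions all overlapped the same GRHL2 region. All of them had 3 MLL3 regions, and their GRHL2 regions were 1180 to 5152 bp wide with folds of 5.09 to 95.5. The strongest was on chromosome 12 (120666456 to 120669624), where a GRHL2 region of 4025 bp and fold 95.5 held MLL3 regions with a summed fold of 30.2. The next were on chromosome 16 (4993201 to 4996196, GRHL2 fold 92.4) and chromosome 22 (29772767 to 29774360, GRHL2 fold 90.9). The shortest chain of all was among them, on chromosome 15 (70488279 to 70489520). Its 3 MLL3 regions had folds of 5.40, 5.06 and 5.16, with links of 537 and 340 bp, on a GRHL2 region of 1180 bp and fold 7.08. Those 3 regions were alike in strength and would count as 1 site by the 1 kb measure.

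At the level of whole chains, all MLL3 regions overlapped a GRHL2 region in 231 of 318 (72.6%), in 72 chains exactly 1 did not, and in 15 chains 2 or more did not. These counts stand beside the 83.7% of all MLL3 regions that overlapped one. At that share most groups of 3 regions hold some overlap, and how many would be fully covered was not computed. GRHL2 regions that reach a −log10 q of 2 lay on 66.5% of all MLL3 regions. Counting only these, 149 chains (46.9%) were fully covered and 10 had no MLL3 region on such a GRHL2 region. The 104 members off GRHL2 had a median MLL3 fold of 5.68 against 6.72 for the 955 on it, and their nearest GRHL2 summit was a median of 1296 bp away. For the 1324 isolated regions off GRHL2 that distance was 5632 bp. Members off GRHL2 thus lay closer to it than isolated ones did, and 43 of the 104 had a summit within 1 kb. By the rule a member has another MLL3 region within the link limit, and 90.2% of members lay on GRHL2. An isolated region has no such neighbour. The shorter distance is therefore in part built in by the chaining, and how large that part is was not tested. Where 1 region of a chain was off, it was the weakest MLL3 region in 36 of the 72 chains and the strongest in 13.

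Only 1 chain had no GRHL2 overlap at all. It lay on chromosome 6 (3797888 to 3809359), with MLL3 folds of 6.32, 8.04 and 4.93, and its summits were 18737, 12525 and 7481 bp from the nearest GRHL2 summit. The strongest single members off GRHL2 were on chromosome 5 (82872953 to 82873277), chromosome 17 (38694250 to 38694653) and chromosome 7 (115924557 to 115924896), with MLL3 folds of 14.6, 12.1 and 11.5. They were picked with their values in view. Absence from the GRHL2 list does not show that the factor is absent, since the depth of the library is unknown.

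In 11 chains no GRHL2 summit reaching a −log10 q of 2 lay inside the span. They were not all chains of weak GRHL2, since a GRHL2 region can reach into a chain with its summit outside. The clearest case, picked with its values in view, was on chromosome 12 (48146396 to 48148774), with 88.1% of its length under GRHL2 regions and a GRHL2 fold of 67.95. In 3 further chains at least 1 MLL3 region overlapped a GRHL2 region that reached 2. The 5 chains named by the rule had weak GRHL2. Of these, the one with the most MLL3 regions was on chromosome 9 (114774267 to 114804681), with MLL3 folds of 5.07, 5.38, 5.36 and 14.8. It held 9 GRHL2 summits below that threshold, and 3 of its 4 MLL3 regions overlapped such a weak GRHL2 region (fold up to 3.06). The next by MLL3 strength was on chromosome 12 (59434354 to 59449563), whose MLL3 folds were 13.1, 6.07 and 7.53 and whose GRHL2 folds were at most 3.30. In both, an MLL3 region of fold over 13 lay on a GRHL2 region under the threshold. The chains on chromosome 1 (3606926 to 3619367), chromosome 8 (94840649 to 94859350) and chromosome 11 (28778557 to 28782853) had top MLL3 folds of 9.15, 7.53 and 11.4 and top GRHL2 folds of 3.32, 2.98 and 3.60. The GRHL2 region of fold 3.60 had its summit outside the chain and just reached the threshold.

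The strongest MLL3 region of a chain more often carried strong GRHL2 than its neighbours did. Among the 318 strongest regions, 93.7% lay on a GRHL2 region and 73.3% on one reaching a −log10 q of 5, with a median GRHL2 fold of 10.9. Among the other 741 members these values were 88.7%, 54.9% and 6.09, and over all MLL3 regions they were 83.7%, 50.4% and 5.94. The strongest regions were picked by MLL3 fold, and the share on GRHL2 rose with MLL3 fold outside chains as well. For isolated regions the share reaching 5 was 35.0% in the lowest quartile of MLL3 fold and 66.9% in the highest. The strongest MLL3 region also had the strongest GRHL2 partner in at least 115 of 238 chains of 3 (48.3%) and in at least 38 of 79 longer chains (48.1%). Where MLL3 regions shared the strongest GRHL2 region, only the leftmost was credited with it, so these are minimum counts. These shares are not comparable between units of different size, since a unit with fewer regions has fewer places for the strongest. The share that the number of places alone would give was not computed. In the rest of the chains the highest MLL3 and the highest GRHL2 were on different regions, or the strongest GRHL2 region was shared. These cases were not counted apart. Across the 955 members on GRHL2, the log2 folds of the factors had a Pearson r of 0.34 (Spearman rho 0.29 on the folds), similar to 0.37 (rho 0.29) across 5796 isolated regions. These are correlations across regions of 1 pair of libraries, not across samples.

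The leading chain by number of MLL3 regions lay on chromosome 12 (52537478 to 52570245, 32768 bp). Its 7 MLL3 regions had folds of 5.72, 11.8, 4.89, 5.55, 4.56, 7.20 and 24.9 from left to right, and all of them overlapped a GRHL2 region. The GRHL2 folds on them were 97.7, 22.6, 22.6, 11.1, 2.16, 35.6 and 5.71 in the same order. The factors peaked at opposite ends: the strongest GRHL2 region (1818 bp) lay at the left end under an MLL3 region of fold 5.72, and the strongest MLL3 region lay at the right end, 11946 bp from its neighbour, on GRHL2 of fold 5.71. This chain also held the most GRHL2 summits of all chains, 15, of which 7 reached a −log10 q of 2 and 7 had a q above 0.05. It was second by summed MLL3 fold (64.5).

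The other chain of 7 was on chromosome 5 (150992620 to 151027334, 34715 bp). MLL3 folds there ran from 4.70 to 11.1, and all 7 regions lay on GRHL2 regions reaching a −log10 q of 2. The MLL3 regions of fold 11.1 and 7.18 were on GRHL2 regions of fold 17.9 and 19.3, the highest GRHL2 folds on any of the 7. A GRHL2 region of fold 18.1 (151025608 to 151026458), second of this chain, lay between MLL3 regions and overlapped none. The leading MLL3 regions thus lay on strong GRHL2 regions, but not every strong GRHL2 region had MLL3.

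Of the 3 chains of 6, that on chromosome 8 (67419658 to 67448359) combined strong MLL3 with low GRHL2 folds. Its MLL3 folds were 11.1, 19.1, 9.85, 5.32, 5.76 and 8.27, whereas the GRHL2 folds were 3.30, 4.54, 5.16, 3.20, 4.35 and 4.35, and no GRHL2 summit was within 100 bp of an MLL3 summit. The chain on chromosome 12 (125398725 to 125424214) had MLL3 folds of 4.45 to 12.4 and 12 GRHL2 summits of folds up to 10.3. Its strongest MLL3 region lay on a GRHL2 region of fold 2.80, 7 bp from that summit. The chain on chromosome 10 (74074762 to 74095635) had MLL3 folds of 3.28 to 8.91 and GRHL2 folds of 3.74 to 10.3, with the highest of both on its first region. GRHL2 was thus modest in all 3 chains of 6, with no fold above 10.3.

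Among the 14 chains of 5, the 7 of highest summed MLL3 fold had top GRHL2 folds from 12.8 to 117. The first, on chromosome 17 (57906576 to 57931214), had MLL3 folds of 10.2, 14.8, 8.10, 13.2 and 7.34. The strongest of these lay on GRHL2 of fold 110, its summit 11 bp away, and the last lay on none. On chromosome 19 (13265518 to 13280845) the MLL3 folds of 6.31, 16.3, 4.95, 5.61 and 3.91 met GRHL2 folds of 117, 82.6, 82.6, 2.53 and 45.5. The chain on chromosome 5 (167786763 to 167793041) was the most compact of the 12, at 6279 bp: its 5 MLL3 regions, with a top fold of 19.3, sat on only 2 GRHL2 regions of fold 84.1 and 41.6. These 3 chains had the strongest GRHL2 of the leading 12, together with the first chain on chromosome 12.

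The remaining 4 of the leading 12 had top GRHL2 folds of 12.8 to 52.4. On chromosome 2 (220549084 to 220572017) the strongest MLL3 region, 1620 bp wide with a fold of 13.7, lay on GRHL2 of fold 52.4, its summit 6 bp away. On chromosome 7 (157082022 to 157111309) the top folds of 13.7 for MLL3 and 39.5 for GRHL2 were also on the same region, with summits 239 bp apart. On chromosome 10, by contrast, the tops were apart in both chains. The chain at 5580266 to 5608181 had MLL3 fold 23.7 on GRHL2 fold 7.63, and GRHL2 fold 30.6 under MLL3 fold 6.43. That at 6763489 to 6782224 had its MLL3 top of 12.6 on a GRHL2 region of fold 2.80 and its GRHL2 top of 12.8 under MLL3 fold 6.93.

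**Figure D4:**
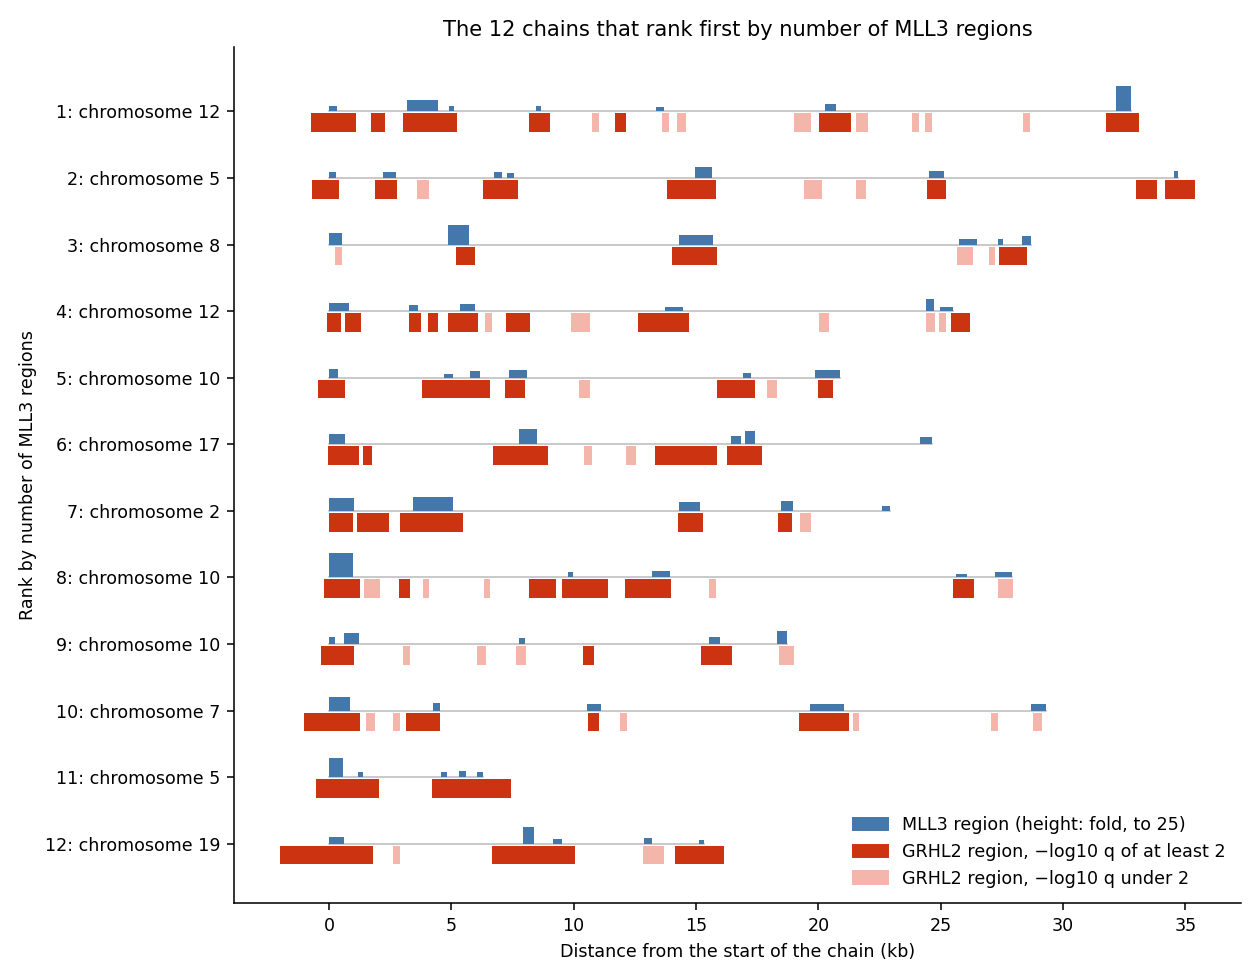
The 12 chains with the most MLL3 regions, by rank (y), drawn to scale as distance from the start of the chain in kb (x). Blue bars above each line are MLL3 regions, with height in proportion to fold enrichment, and boxes below are GRHL2 regions reaching a −log10 q of 2 (red) or not (pink). In the first chain the tallest MLL3 region (fold 24.9) is at the right end, and chain 11 has 5 MLL3 regions over 2 GRHL2 regions.

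By summed MLL3 fold the leading chain had only 3 regions. It lay on chromosome 6 (53599152 to 53611771), with MLL3 folds of 29.1, 18.2 and 17.3 and a sum of 64.6, and the latter pair shared a GRHL2 region of 4441 bp and fold 93.4. After the chain of 7 on chromosome 12 came 2 chains of 4 on chromosome 10. The one at 95218526 to 95231297 (sum 63.2) was dominated by 1 region, with an MLL3 fold of 41.3 on GRHL2 of fold 123, beside folds of 11.3, 5.64 and 4.93. The one at 11916519 to 11927108 (sum 61.2) had folds of 21.2 and 23.4 on 1 GRHL2 region of fold 104, then 9.86 and 6.74. The fifth, on chromosome 8 (49608649 to 49626680, sum 59.6), was even: its MLL3 folds were 14.2, 11.5, 19.1 and 14.8, on GRHL2 folds of 5.60, 9.19, 8.48 and 24.99. Only 3 of the 12 chains that led by number of regions were among the first 12 by summed fold, and 5 were among the 12 longest.

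The longest chain was on chromosome 9 (114594068 to 114629482, 35415 bp). Its 5 MLL3 regions had folds of 5.26, 5.83, 5.99, 10.8 and 5.53, with GRHL2 folds of 2.94, 45.6, 5.83, 47.7 and 3.35. A GRHL2 summit lay within 100 bp of 4 of the 5. After the leading chain, the most GRHL2 summits, 13 each, were in a chain of 4 on chromosome 9 (130323879 to 130346657) and a chain of 3 on chromosome 15 (24185258 to 24200458). These were unlike each other: GRHL2 on the MLL3 regions reached a fold of 60.3 in the former and of 3.997 in the latter, where no GRHL2 summit reached a −log10 q of 5.

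GRHL2 regions inside chains were not only those on MLL3. The chains held 1350 GRHL2 summits, a median of 4 per chain (quartiles 3 and 5), 797 of them reaching a −log10 q of 2. Of the 1350, 798 belonged to GRHL2 regions on an MLL3 region and 552 did not. The latter were mostly weak: 337 had a q above 0.05, 142 reached a −log10 q of 2, and 50 reached 5. GRHL2 summits outnumbered MLL3 regions in 165 chains, were as many in 68 and fewer in 85. With the threshold of 2 they outnumbered MLL3 regions in 41 chains and were fewer in 200, so which factor was more numerous turned on the GRHL2 threshold.

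Chains held 3.42 GRHL2 summits per 10 kb (95% Poisson interval 3.24 to 3.61), and the flanks of the same length on both sides of each chain held 1.59 (1.501 to 1.68). For summits reaching a −log10 q of 2 the densities were 2.02 (1.88 to 2.17) and 0.397 (0.354 to 0.443), and for weak summits, with a q above 0.05, they were 1.09 and 0.989. By the rule itself no MLL3 summit lies close outside a chain. Without the GRHL2 regions on MLL3 the gap was smaller, at 0.468 inside and 0.318 (0.280 to 0.360) in the flanks for summits reaching a −log10 q of 2. The lengths were unlike: 142 summits over 3032 kb inside, without the stretches under MLL3 and its GRHL2 regions, and 251 over the full 7887 kb of flanks. The shorter length raises the density inside, so this gap is not a like comparison. The surroundings of chains were also richer in GRHL2 regions than those of isolated regions. Leaving out GRHL2 regions on MLL3, and inside chains also the length under these and under MLL3 regions, chains held 0.468 GRHL2 summits reaching a −log10 q of 2 per 10 kb (95% Poisson interval 0.394 to 0.552). The density was 0.333 (0.273 to 0.403) in the first 5 kb outside a chain and 0.195 (0.185 to 0.205) in the first 5 kb outside an isolated region. At 250 to 500 kb it was still 0.146 around chains and 0.110 around isolated regions, against 0.0740 over chromosomes 1 to 22 without the tracts. Weak GRHL2 regions, with a q above 0.05, were likewise denser around chains than around isolated regions. Their density off MLL3 was 1.11 per 10 kb (0.996 to 1.24) inside chains and 1.09 (0.976 to 1.21) in the first 5 kb outside. The length was shortened only inside. Whether weak or stronger GRHL2 regions off MLL3 thin out at the edge of a chain therefore cannot be read from these values. In the next window outwards from chains the weak density off MLL3 was 0.857 (0.776 to 0.945). It was 0.689 at 250 to 500 kb from chains, 0.514 at that distance from isolated regions and 0.364 overall. Windows of neighbouring units overlap, so some summits were counted more than once and the intervals are too narrow.

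**Figure D5:**
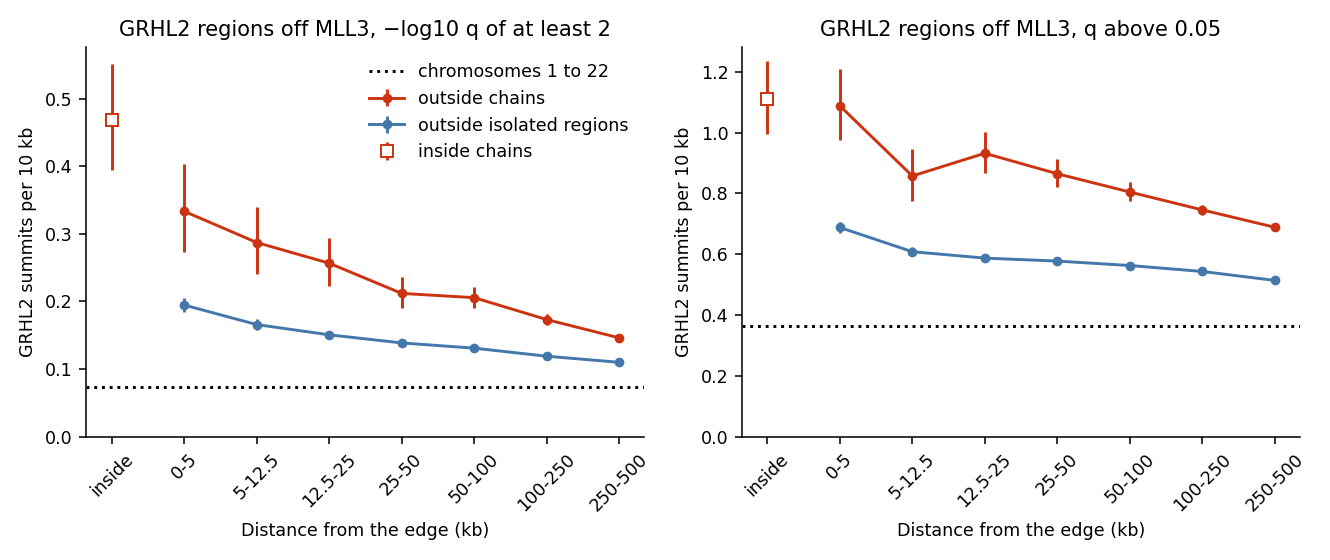
Density of GRHL2 summits not on an MLL3 region (y, per 10 kb) inside chains (open square) and by distance from the edge of a chain (red) or of an isolated MLL3 region (blue) in kb (x), for GRHL2 regions reaching a −log10 q of 2 (left) and with a q above 0.05 (right). Error bars are 95% Poisson intervals and the dotted line is the density over chromosomes 1 to 22. For the open square the length under MLL3 regions and the GRHL2 regions on them was left out, while the windows outside kept their full length. Chains lie above isolated regions in each distance class in both panels.

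Within 500 kb to either side, a chain member had a median of 59 weak GRHL2 summits (quartiles 39 and 101), against 43 (24 and 69) for an isolated region. Paired regions had 54 (32 and 91). For GRHL2 summits reaching a −log10 q of 2 the medians were 22 in chains, 19 in pairs and 15 in isolated regions. Members of the same chain share most of this window and were each counted. The higher overlap of chain members with GRHL2 therefore comes with a higher local density of the whole GRHL2 list, weak regions included, and the part of this density in the overlap was not tested.

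Chains were found on each of chromosomes 1 to 22, most of all on chromosomes 10 and 11 with 25 each. The share of MLL3 regions that lay in chains was highest on chromosome 21 (27 of 139, 19.4%, 95% interval 13.2 to 27.0%), followed by chromosome 10 with 14.2%. It was lowest on chromosome 13 (8 of 219, 3.65%, 1.59 to 7.07%) and chromosome 4 (15 of 347, 4.32%). Chromosomes 4, 18 and 13 also had the fewest MLL3 regions per Mb (1.84, 2.31 and 2.32), while chromosome 21 with 4.34 was not among the densest, which were chromosomes 20 (5.94) and 22 (5.70). Among chromosomes with at least 50 members, the share of members on GRHL2 ran from 83.5% on chromosome 2 to 95.7% on chromosome 9. It was above the share of isolated regions of the same chromosome on each of these. Among chromosomes with fewer members it was below that share on chromosome 13 (5 of 8, 62.5%, against 81.2%) and chromosome 18 (6 of 9, 66.7%, against 78.6%). Most chains had no other chain close by: 38 of the 318 had one within 100 kb and 20 within 50 kb, and the closest pair was 15729 bp apart.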

How the data were processed

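Regions of 1 MLL3 and 1 GRHL2 library of KYSE510 cells were used as the authors deposited them, as narrowPeak lists called against input. Per the submitters' processing notes, BWA, Picard, MACS2 and deepTools were used with the build hg19. For their versions and settings, and for read depth, nothing is given in the sources used here. The authors' deposited values are, per region, the fold enrichment (a ratio of ChIP to background at the summit), the −log10 p-value and the −log10 q-value. The deposited score follows the −log10 q-value in the MLL3 list and the −log10 p-value in the GRHL2 list, and was not used. Chains, overlaps (at least 1 bp), distances and densities were computed with Python 3.11.15, pandas 2.3.3, numpy 2.4.6 and scipy 1.17.1. The chaining and overlap steps were tested on simulated regions. Shares have exact Clopper-Pearson 95% intervals, medians have order-statistic 95% intervals and densities have exact Poisson 95% intervals. These cover the counting of regions only, and they treat neighbouring regions as independent, which they are not.

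No test was made: each antibody had 1 library, and the MLL3 list itself chose the members. The members, classes and lists were chosen with earlier results of these data known. Regions on X and on unplaced contigs were left out. The rule for named chains took the 12 with the most MLL3 regions (ties by summed fold), the 5 of highest summed fold, the 3 with the most GRHL2 summits, the 5 with the most MLL3 regions among chains that held no GRHL2 summit with a −log10 q of at least 2, and the longest and the shortest. GRHL2 density inside chains was set against flanks as long as each chain, and the windows by distance were added after seeing the data. The parts of the design that need an hg19 annotation or sequence (nearest genes, gene lists, a motif search) were not carried out. Alternatives covered the link length, the chain size, the thresholds, the overlap rule, the tracts and the ranking.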

Additional observations from a re-analysis of the deposited data

Results flagged for a closer look

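Chromosome X was outside the rule, but the same chaining there gave 4 chains with 12 of its 254 MLL3 regions, and 10 of the 12 overlapped a GRHL2 region. The tracts left out on chromosomes 1 and 9 gave 44 chains with 1491 of their 1627 MLL3 regions, 766 of them in 1 chain. Both are listed because MLL3 chains appeared in data that the comparisons did not use.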

How the results depend on the processing

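Of 39 alternatives, 14 left the reported value within its interval or a count within 1.5 times, and 25 moved it. The number of chains, 318, went to 118 with links of at most 5 kb, 540 with 25 kb, 1363 with pairs included, 19 with 5 or more regions and 198 from MLL3 regions reaching a −log10 q of 5. The share of members on GRHL2, 90.2%, was 76.6%, 60.4% and 39.4% for GRHL2 regions reaching a −log10 q of 2, 5 and 20, 86.6% with an overlap of 50% of the shorter region, 43.5% with summits within 100 bp, 95.1% in chains of 5 or more and 94.0% with the tracts kept in. The median GRHL2 fold, 7.08, was 9.18 for those reaching 2, 6.30 with links of 25 kb and 5.90 in chains of 5 or more. The median summit distance, 106 bp, was 133 bp with links of 5 kb, 129 bp in chains of 5 or more and 374.5 bp with the tracts kept in. GRHL2 summits inside chains, 3.42 per 10 kb, came to 2.02 and 1.42 for those reaching 2 and 5, 5.05 and 2.61 with links of 5 and 25 kb, and 1.82 without GRHL2 regions on MLL3. The last density is over a shorter length (3032 kb against 3943 kb), without the stretches under these and under MLL3 regions. Of the 12 leading chains, 3 were kept when ranked by summed fold and 5 by span. With links of 5 kb, of 25 kb, from MLL3 regions reaching a −log10 q of 5, with the tracts and with the 50% overlap, the share on GRHL2 was higher in chains than in isolated regions (91.1% against 82.2%, 90.1% against 80.6%, 90.8% against 83.9%, 94.0% against 81.4% and 86.6% against 77.9%). The cause of these shifts was not tested beyond what the construction of each setting brings. The settings without GRHL2 regions on MLL3, at a −log10 q of 20, without chains with links under 1 kb, with such summits counted as 1, and without chains near the tracts were chosen after seeing the data. Read depth is unknown and limits both lists. No paired analysis was possible because there was only 1 library for each antibody.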
